A study of Homo sapiens with 6 samples.

Results

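The cyclins, the cyclin-dependent kinases (CDKs) and the proteins that switch them on and off were followed as a group of 46 genes in UE7T-9 cells, a human mesenchymal stem cell (MSC) line from bone marrow. The 46 genes were taken by symbol from a table of 58735 genes, each symbol was found, and all 46 passed the filter on low counts, as did 15341 genes in all. The study compared 3 libraries of control UE7T-9 cells, given as genotype WT, with 3 libraries of UE7T-9 cells of genotype SRRM4 KO, grown in DMEM with fetal bovine serum. SRRM4 (serine/arginine repetitive matrix 4) is a splicing factor known from neurons. The SRRM4 KO line was made with a lentiviral CRISPR v2 vector that carries the gRNA, was selected with puromycin and was then cloned from a single cell. By the study's own account the loss of SRRM4 protein was not complete. The KO line is therefore 1 clone, the labels do not say whether the control cells were transduced or cloned, and effects of the knockout, of the vector and of the choice of the clone cannot be told apart here. No source used here says whether the 3 libraries of a group came from separate cultures, so that p-values measure only the spread between these libraries, which may be technical.

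Cyclins are the regulatory subunits of CDKs. D-type cyclins with CDK4 or CDK6 and E-type cyclins with CDK2 phosphorylate the retinoblastoma (RB) proteins, which otherwise hold E2F transcription factors inactive, and freed activator E2Fs with their DP partners drive the genes of DNA synthesis. In G2 and mitosis, cyclins A and B work with CDK1, and FOXM1, B-MYB and the MuvB complex switch on the mitotic genes through a promoter element called CHR. The CIP/KIP and INK4 proteins are the inhibitors of CDKs, the WEE1 family adds and the CDC25 phosphatases remove the phosphates that keep CDKs inactive, and p53 acts on the system through CDKN1A. Lines of the UE7T series are known to have been immortalized with the viral E7 protein, which binds RB proteins, and with TERT. This is background on the series of lines, which the labels do not give.

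Depth was even, at 21496117 to 23868323 counts per library, and a count of 0 allows up to 3 counts, or 0.123 to 0.139 CPM (counts scaled to a common library size, after TMM). Control replicate 1 stood apart, with 22403 genes counted against 20127 to 20674 in the other libraries. SRRM4 had 0 counts in all 6 libraries, which gives no check of the knockout. Of the surface markers that define MSCs, NT5E (CD73) had means of 342 ± 20.7 CPM in control and 489.6 ± 8.19 CPM in KO libraries (SD, n = 3 each), ENG (CD105) of 246 ± 19.6 and 194 ± 7.96 CPM, and THY1 (CD90) of 144 ± 17.7 and 26.7 ± 2.62 CPM. The 7 markers of blood cells summed to between 17.9 and 21.8 CPM in every library, most of it CD14, and the 5 markers of endothelium and epithelium to between 1.44 and 2.78 CPM. In bulk RNA, more dividing cells and more of an RNA in each cell cannot be told apart, which holds for every value below. The study's own MTS assay, a measure of cell proliferation, found no significant difference between control and SRRM4 KO cells.

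Most of the cell cycle genes were higher in SRRM4 KO cells. The RNAs of cyclin D1, of cyclins A2, B1 and B2, of CDK1 and CDK2, of E2F1 and of the aurora kinases were 2.21 to 3.59 times as abundant as in control cells, while CDK6 and the inhibitors CDKN1B, CDKN1C and CDKN2B were lower. With an adjusted p under 0.05 (quasi-likelihood test of edgeR, Benjamini-Hochberg adjusted over 15341 genes), 29 of the 46 genes (63%) were higher, 5 (10.9%) were lower and 12 did not pass. Over all genes tested, 20.7% were higher and 20.9% lower. With a fold change beyond 2 asked for as well, 20 of the 46 were higher and 1, CDKN1C, was lower, against 5.45% higher and 7.14% lower of all genes. A test against the 2-fold change itself (glmTreat) called 13 of the 46 higher and 1 lower. The 3 libraries of one group lay apart from the 3 of the other in 37 of the 46 genes (80.4%), and in 51.8% of all genes. The median log2 fold change was 0.82 over the 46 genes and -0.01 over all genes. Leaving out any library left 29 or 30 genes higher and 4 to 6 lower, and without control replicate 1, the library that stood apart, 30 were higher and 6 lower.

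**Figure D1:**
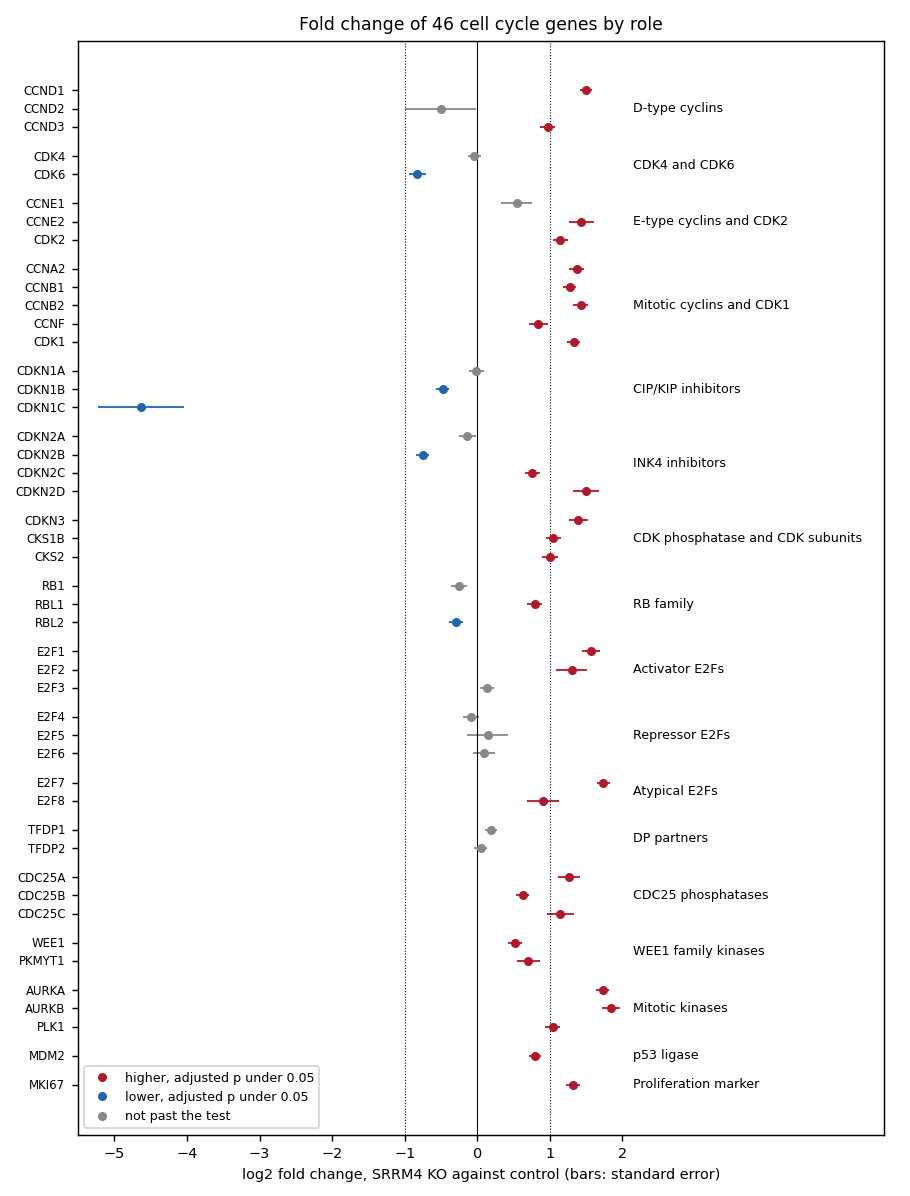
Log2 fold change in SRRM4 KO against control cells (x axis, bars are the standard error) for each of the 46 genes, grouped by role and coloured by the call at an adjusted p under 0.05; dotted lines mark a 2-fold change. Each of the 5 mitotic cyclins and CDK1 and each of the 3 mitotic kinases lies to the right of 0, the inhibitors lie on both sides, and CDKN1C is the lowest at -4.64.

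Short promoter elements were looked up because cell cycle genes are known to be controlled through them. The set of RefSeq promoter windows used (GRCh38.p14), from 250 bases before to 50 bases after the start, held 36 of the 46 genes. For each gene, only the first window listed was searched. Both strands were searched for the CHR element (TTTGAA), for E2F sites (TTTCCCGC, TTTCGCGC, TTTGCCGC or TTTGGCGC) and for the CCAAT box (CCAAT, the site of NF-Y). Of the 22 genes with a window that were higher, 36.4% held CHR, 27.3% an E2F site and 72.7% a CCAAT box, and of all 27305 windows 15.4%, 3.33% and 35.7% did. Of the 10 genes with a window that did not pass the test, 10% held CHR, 20% an E2F site and 20% a CCAAT box. Of the 4 lower genes with a window, 0 held an E2F site, 1 a CHR match and 1 a CCAAT box. The first 5 sequences below are genes of mitosis and proliferation with CHR, the next 4 are genes of the G1 to S step with an E2F site, and the last 2 are genes that fell and held none of the 3 motifs. Each is the 100 bases before the RefSeq start, 5′ to 3′ on the strand of the gene, with every CHR, E2F and CCAAT match in capitals. GENCODE release 29 places the first base of some genes further upstream, and in 6 of the 36 genes (CCND3, CDK4, CDKN1A, CDKN1B, PLK1 and RB1) the RefSeq start lay more than 1000 bases inside the gene. That of RB1, counted above among the genes that did not pass, lay 172724 bases inside it, so that its window is not the promoter at the gene's first base.
CCNB2 (chr15:59105046-59105145, plus strand): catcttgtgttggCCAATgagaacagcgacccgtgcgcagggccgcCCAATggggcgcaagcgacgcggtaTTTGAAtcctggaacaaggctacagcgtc
CKS1B (chr1:154974581-154974680, plus strand): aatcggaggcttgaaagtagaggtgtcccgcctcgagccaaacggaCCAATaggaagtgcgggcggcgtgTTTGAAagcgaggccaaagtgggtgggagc
CKS2 (chr9:89311095-89311194, plus strand): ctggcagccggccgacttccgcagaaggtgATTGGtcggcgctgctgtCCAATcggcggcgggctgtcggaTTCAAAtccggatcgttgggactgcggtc
PLK1 (chr16:23678789-23678888, plus strand): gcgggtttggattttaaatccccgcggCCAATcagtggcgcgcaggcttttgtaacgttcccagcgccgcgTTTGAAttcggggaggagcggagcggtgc
MKI67 (chr10:128126424-128126523, minus strand): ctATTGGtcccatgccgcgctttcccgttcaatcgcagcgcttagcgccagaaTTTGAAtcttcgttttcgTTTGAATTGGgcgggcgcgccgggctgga
E2F1 (chr20:33686386-33686485, minus strand): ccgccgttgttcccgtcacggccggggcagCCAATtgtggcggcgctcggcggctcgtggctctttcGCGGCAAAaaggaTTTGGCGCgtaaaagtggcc
E2F2 (chr1:23531234-23531333, minus strand): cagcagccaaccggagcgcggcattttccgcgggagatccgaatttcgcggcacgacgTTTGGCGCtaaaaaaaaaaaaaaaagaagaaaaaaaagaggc
RBL1 (chr20:37095998-37096097, minus strand): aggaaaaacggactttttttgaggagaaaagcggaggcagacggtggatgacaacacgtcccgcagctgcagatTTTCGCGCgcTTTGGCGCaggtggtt
CDC25A (chr3:48188418-48188517, minus strand): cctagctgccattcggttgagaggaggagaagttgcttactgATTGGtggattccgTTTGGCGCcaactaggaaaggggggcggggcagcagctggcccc
CDK6 (chr7:92836574-92836673, minus strand): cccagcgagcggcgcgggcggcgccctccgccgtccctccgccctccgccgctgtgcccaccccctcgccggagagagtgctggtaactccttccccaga
CDKN2B (chr9:22009306-22009405, minus strand): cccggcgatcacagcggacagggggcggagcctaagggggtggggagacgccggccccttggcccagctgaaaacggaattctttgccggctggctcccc
The CHR match began 29 bases before the start in CCNB2, CKS2, PLK1 and MKI67 and 30 bases before it in CKS1B, and in CKS2 it lay on the other strand. MKI67 held a further CHR match 47 bases before the start, and its nearer CHR match shares a base with a CCAAT box on the other strand. The E2F sites of E2F1 began 33 and 20 bases before the start and those of RBL1 26 and 16 bases before it, while E2F2 and CDC25A had 1 each, at 42 and 44 bases. A match is not a measured binding site, and E2F3, which held an E2F site, a CHR match and CCAAT boxes in its window, did not pass the test.

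Cyclin D1 carried most of the D-type cyclin RNA and had the highest fold change of its family. CCND1, on chromosome 11 (69641087 to 69654474, GRCh38), was at 136, 132 and 144 CPM in control replicates 1 to 3 and at 381, 394 and 389 CPM in KO replicates 1 to 3. It was 2.82-fold higher (log2 fold change 1.498, standard error 0.076, adjusted p = 8.74e-10, edgeR), and each KO library lay above each control library. LTO1 on the other strand shares 10.3% of its exonic bases. CCND3, another D-type cyclin, was at 35.9, 42.6 and 45.2 CPM in control and at 81.4, 79.9 and 81.0 CPM in the KO libraries, a log2 fold change of 0.97 (standard error 0.10). It stayed just inside the 2-fold line, which it passed only without control replicate 3, at 1.04. CCND2 was close to the detection limit at 12 to 32 counts per library, its groups overlapped, and its log2 fold change was -0.50 (adjusted p = 0.445, standard error 0.49). Summed in TPM, which corrects for gene length and for depth, the D-type cyclins were at 161 ± 6.55 TPM (SD, n = 3) in control and 426 ± 7.49 TPM (SD, n = 3) in SRRM4 KO cells. CCND1 made up 79.7 ± 1.86% (SD, n = 3) of that sum in control and 85.1 ± 0.359% (SD, n = 3) in SRRM4 KO cells, and CCND3 19.9 ± 1.72% and 14.8 ± 0.327%. These shares did not overlap between the groups, and the exact two-sided permutation test gave p = 0.1 for each, the smallest value that 3 libraries against 3 allow.

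Neither of the kinases that D-type cyclins bind rose. CDK4 was at 102, 101 and 114 CPM in control and at 105, 104 and 99.3 CPM in the KO libraries, with overlapping groups and a log2 fold change of -0.04 (adjusted p = 0.747, edgeR, standard error 0.086). Of its exonic bases 43.2% also belong to TSPAN31 on the other strand, and the libraries do not keep the strand. CDK6 fell, from 198, 152 and 151 CPM in control to 97.1, 81.7 and 103 CPM in the KO libraries (log2 fold change -0.83, standard error 0.12, adjusted p = 3.76e-05, edgeR). All KO libraries lay below all control libraries, and control replicate 1 was the highest of the 6. Per length, CDK6 was 28.9 ± 4.06% (SD, n = 3) of CDK4 and CDK6 together in control and 19.1 ± 2.13% (SD, n = 3) in SRRM4 KO cells, again without overlap (exact two-sided permutation test, p = 0.1). The summed level of both kinases was 212 ± 14.5 TPM (SD, n = 3) in control and 181 ± 4.27 TPM (SD, n = 3) in SRRM4 KO cells.

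**Figure D2:**
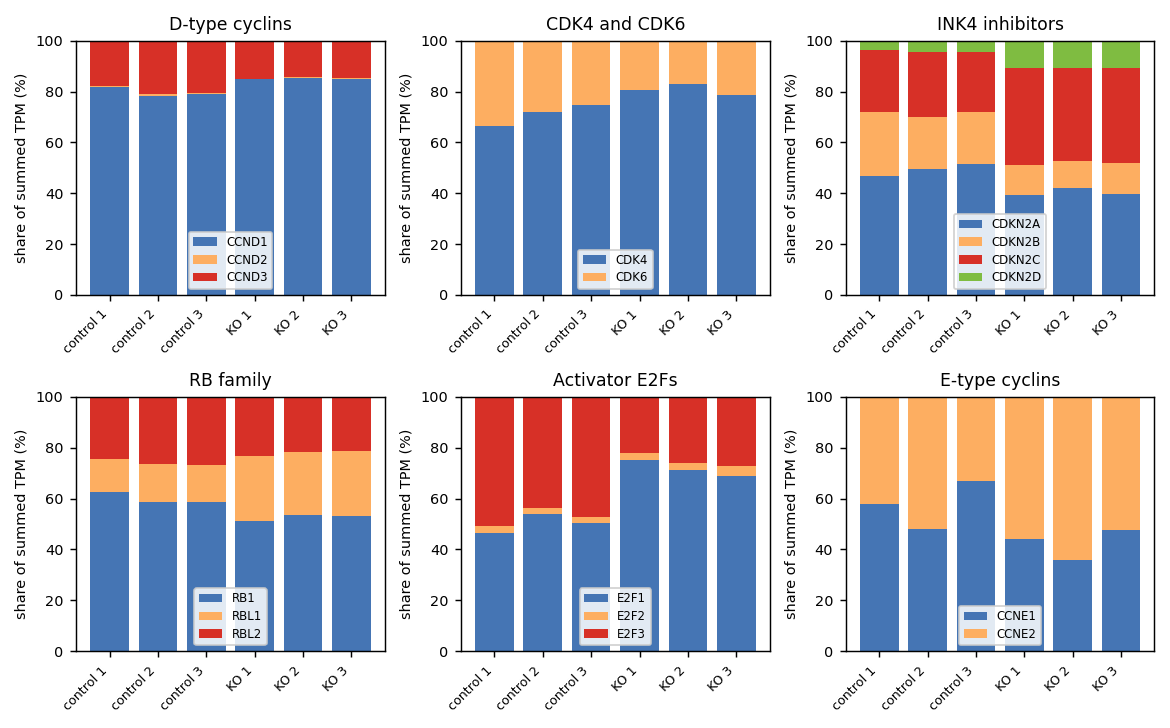
Share of each gene in the summed TPM of its family (y axis, percent) in each of the 6 libraries (x axis), for 6 families. The CCND1, CDK4, CDKN2C, RBL1 and E2F1 segments are larger in every KO library than in every control library, and those of CDK6, CDKN2B and E2F3 smaller.

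The E-type cyclins, which open S phase with CDK2, differed from each other in call. CCNE2 was at 5.72, 6.87 and 4.66 CPM in control and at 14.6, 17.2 and 14.8 CPM in the KO libraries, 2.70-fold higher (adjusted p = 6.95e-06, edgeR). INTS8 and a further gene on the other strand share 37.1% of its exonic bases. CCNE1 was at 4.57, 3.71 and 5.51 CPM in control and 6.69, 5.62 and 7.82 CPM in the KO libraries. Its groups did not overlap, and its log2 fold change of 0.54 (standard error 0.21) missed the threshold with an adjusted p of 0.0508, but passed it without control replicate 3 (0.0330) and without KO replicate 2 (0.0423). CCNE1 was 57.8 ± 9.43% (SD, n = 3) of the E-type cyclin RNA per length in control and 42.6 ± 5.97% (SD, n = 3) in SRRM4 KO cells. CDK2 itself rose 2.21-fold, from 39.9, 35.6 and 41.3 CPM to 86.5, 91.8 and 80.2 CPM (log2 fold change 1.15, standard error 0.098, adjusted p = 2.17e-07, edgeR), with 16.8% of its exonic bases shared with genes on the other strand.

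Cyclins A2, B1, B2 and F and CDK1, which carry cells through S phase, G2 and mitosis, rose in all 5 cases. CCNA2 was at 45.5, 36.0 and 37.1 CPM in control and at 96.5, 104 and 106 CPM in the KO libraries (log2 fold change 1.37, standard error 0.10). CCNB1, on chromosome 5 (69167010 to 69178245), was at 60.0, 54.7 and 52.2 CPM and 130.5, 129 and 144 CPM (log2 fold change 1.28, standard error 0.091). CCNB2, whose promoter with CHR is shown above, was at 23.2, 26.7 and 25.0 CPM and 62.3, 66.8 and 72.1 CPM (log2 fold change 1.42, standard error 0.10). The kinase that all of these cyclins but cyclin F activate, CDK1, was at 62.3, 50.6 and 55.9 CPM in control and at 141, 136 and 147 CPM in the KO libraries, a log2 fold change of 1.33 (standard error 0.095). EXOSC9 on the other strand shares 9.08% of the exonic bases of CCNA2. The adjusted p of these 4 genes lay between 3.41e-08 for CDK1 and 7.00e-08 for CCNA2 (quasi-likelihood test of edgeR, Benjamini-Hochberg adjusted), and in each of them every KO library was above every control library. CCNF, the F-box cyclin of the SCF ubiquitin ligase, changed least, with a log2 fold change of 0.84 (adjusted p = 1.24e-04, standard error 0.13). Together the 5 genes summed to 277 ± 27.0 TPM (SD, n = 3) in control and 690 ± 39.5 TPM (SD, n = 3) in SRRM4 KO cells.

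The inhibitors of CDKs split. Among the CIP/KIP proteins, which bind cyclin and CDK together, CDKN1A (p21), the p53 target, was at 133, 163 and 169 CPM in control and 151, 168 and 143 CPM in the KO libraries, with a log2 fold change of -0.01 (adjusted p = 0.942, edgeR, standard error 0.1). The KO libraries lay within the range of the control libraries, of which replicate 1 was the lowest. CDKN1B (p27) was at 83.6, 85.5 and 95.6 CPM and 62.5, 65.8 and 61.8 CPM and fell by 0.48 on the log2 scale (standard error 0.09, adjusted p = 5.42e-04, edgeR). CDKN1C (p57), an imprinted gene on chromosome 11 (2883213 to 2885773), had 51, 58 and 91 counts in the control libraries and 6, 1 and 1 counts in the KO libraries. It was the only one of the 46 genes that fell beyond 2-fold, with a log2 fold change of -4.64 (adjusted p = 1.43e-05, edgeR, standard error 0.59). Its level was low in both groups, so that the size of the fall is uncertain: the log2 fold change ran from -5.97 to -4.23 as single libraries were left out.

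The INK4 proteins, which bind CDK4 and CDK6 alone, moved in both directions. CDKN2B (p15) was at 86.3, 87.8 and 90.1 CPM in control and 53.9, 52.2 and 50.7 CPM in the KO libraries and fell by 0.75 on the log2 scale (standard error 0.086, adjusted p = 4.81e-06, edgeR). Its neighbour on chromosome 9, CDKN2A, which encodes p16 and, from another start and reading frame, ARF, was at 172, 229 and 239.6 CPM and 195, 214 and 174 CPM and did not pass (log2 fold change -0.13, adjusted p = 0.378). Gene counts do not separate the 2 products. Control replicate 1 was the lowest library for CDKN2A, and without it CDKN2A passed as lower, at -0.27 (adjusted p = 0.00434). The other two rose. CDKN2C (p18) was at 69.4, 90.6 and 84.0 CPM and 145, 143 and 126 CPM (log2 fold change 0.76, standard error 0.10), and CDKN2D (p19) at 4.43, 7.19 and 7.35 CPM and 18.4, 18.9 and 16.4 CPM, 2.83-fold higher (adjusted p = 9.22e-06, edgeR). The INK4 sum per length was 449 ± 45.8 TPM (SD, n = 3) in control and 501 ± 33.1 TPM (SD, n = 3) in SRRM4 KO cells. Within it CDKN2B went from 22.0 ± 2.67% to 11.6 ± 0.687% (SD, n = 3 each) and CDKN2C from 24.6 ± 1.06% to 37.3 ± 0.850% (SD, n = 3 each).

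Of the 3 RB proteins, RBL1 (p107) rose, RBL2 (p130) passed as lower but lost the call in some settings, and RB1 did not pass. RBL1, which is itself an E2F target and whose promoter holds the pair of E2F sites shown above, was at 44.2, 39.2 and 41.8 CPM in control and 71.2, 64.8 and 80.9 CPM in the KO libraries (log2 fold change 0.79, standard error 0.10, adjusted p = 1.94e-05, edgeR). RB1 was at 229.8, 170.1 and 182 CPM and 155, 152 and 182 CPM, the groups overlapped, and the log2 fold change of -0.25 (standard error 0.11) did not pass (adjusted p = 0.081), although it passed without control replicate 2 (0.0333) or without KO replicate 3 (0.0367). RBL2, the member of quiescent cells, was at 101, 87.3 and 94.6 CPM and 79.4, 69.6 and 82.0 CPM and passed with a log2 fold change of -0.29 (adjusted p = 0.0217, edgeR, standard error 0.095). AKTIP and a further gene on the other strand share 18.2% of its exonic bases. The call was lost without control replicate 3 (adjusted p = 0.0607) and without KO replicate 2 (0.127). The tested genes of a chromosome had a median log2 fold change of -0.27 on chromosome 13, which holds RB1, and -0.28 on chromosome 16, which holds RBL2. The share of RBL1 in the RB family RNA per length was 14.1 ± 0.903% (SD, n = 3) in control and 25.3 ± 0.507% (SD, n = 3) in SRRM4 KO cells, and that of RB1 60.0 ± 2.33% and 52.7 ± 1.26%.

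Of the 8 E2F genes, E2F1, E2F2, E2F7 and E2F8 rose and the other four did not pass. Among the activators, E2F1, on chromosome 20 (33675683 to 33686404), was at 20.7, 27.5 and 25.5 CPM in control and 83.4, 71.0 and 64.1 CPM in the KO libraries, 2.97-fold higher (log2 fold change 1.57, standard error 0.13, adjusted p = 1.28e-07, edgeR). E2F2 was at 2.95, 2.60 and 2.46 CPM and 6.15, 6.08 and 7.59 CPM (log2 fold change 1.30, standard error 0.21, adjusted p = 1.58e-04), and E2F3 at 46.6, 45.8 and 49.4 CPM and 50.6, 52.97 and 51.99 CPM (log2 fold change 0.13, adjusted p = 0.267). E2F1 was 50.3 ± 3.86% (SD, n = 3) of the activator E2F RNA per length in control, about level with E2F3 at 47.2 ± 3.51%, and 71.9 ± 3.15% (SD, n = 3) against 25.0 ± 2.60% in SRRM4 KO cells. The repressor E2Fs did not pass the test. E2F4 was at 46.0, 55.7 and 58.7 CPM and 52.2, 45.8 and 53.8 CPM, with a log2 fold change of -0.08 (standard error 0.11), and the log2 fold changes of E2F5 and E2F6 were 0.14 (standard error 0.28) and 0.10 (standard error 0.15). The atypical E2Fs, which repress E2F targets late in S phase and are themselves E2F targets, both rose. E2F7 was at 56.4, 50.2 and 52.9 CPM in control and 174, 174 and 184 CPM in the KO libraries, 3.33-fold higher (adjusted p = 6.62e-10, edgeR), and E2F8, at 54 to 132 counts per library, had a log2 fold change of 0.90 (adjusted p = 0.00428, standard error 0.22). The DP partners did not pass, with log2 fold changes of 0.19 (standard error 0.078, adjusted p = 0.0672) for TFDP1 and 0.05 (standard error 0.09) for TFDP2. TFDP1 was at 187, 189 and 204 CPM in control and 214, 217 and 229 CPM in the KO libraries, without overlap, and passed as higher without control replicate 1 (adjusted p = 0.0458).

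Both sides of the phosphate switch on CDKs rose. CDC25A, the phosphatase of the G1 to S step, was at 6.04, 6.54 and 7.39 CPM in control and 17.3, 14.4 and 16.4 CPM in the KO libraries, 2.40-fold higher (adjusted p = 8.25e-06, edgeR). CDC25C, the phosphatase of entry into mitosis, was at 6.37, 5.89 and 4.71 CPM and 14.3, 13.3 and 9.91 CPM, 2.21-fold higher (adjusted p = 1.44e-04, edgeR), and its exons overlap by 8.78% with those of the more abundant FAM53C on the other strand. CDC25B had the highest level of the 3, at 102 ± 3.58 TPM (SD, n = 3) in control and 157 ± 8.24 TPM (SD, n = 3) in SRRM4 KO cells, and the smallest log2 fold change, 0.62 (standard error 0.086). Against them, the inhibitory kinase WEE1 was at 69.2, 59.2 and 55.4 CPM in control and 85.7, 85.3 and 92.0 CPM in the KO libraries, a log2 fold change of 0.52 (adjusted p = 6.19e-04, edgeR, standard error 0.099). Its relative PKMYT1 had a log2 fold change of 0.71 (adjusted p = 0.00166, standard error 0.15), with 31.6% of its exonic bases shared with genes on the other strand, mainly PAQR4. The rises of CDC25B, WEE1 and PKMYT1 were within 2-fold.

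The kinases of mitosis rose, and AURKB held the highest fold change of the 46 genes in the edgeR test of all 6 libraries. Once the chromosome median was taken from each log2 fold change, E2F7 was at 1.79 and AURKB at 1.64. AURKB, the kinase of the chromosomal passenger complex, was at 11.7, 15.8 and 15.8 CPM in control and 54.0, 50.5 and 51.0 CPM in the KO libraries, 3.59-fold higher (log2 fold change 1.84, standard error 0.13, adjusted p = 2.33e-08, edgeR). AURKA, the kinase of centrosomes and spindle poles, was at 25.1, 25.0 and 25.9 CPM and 86.5, 82.9 and 82.7 CPM, 3.32-fold higher (adjusted p = 1.41e-09, edgeR), with SDs of only 0.50 CPM in control and 2.13 CPM in SRRM4 KO cells (n = 3 each). PLK1, whose promoter is shown above, was at 28.0, 35.1 and 35.0 CPM and 66.8, 67.1 and 67.8 CPM (log2 fold change 1.04, standard error 0.11, adjusted p = 1.50e-06, edgeR). CDKN3, the phosphatase that removes the activating phosphate of CDKs, was at 10.7, 15.1 and 13.8 CPM and 33.1, 34.9 and 35.8 CPM, 2.63-fold higher (adjusted p = 9.12e-07). The small CDK subunits CKS1B and CKS2 were close to 2-fold. CKS1B was at 32.0, 28.4 and 31.2 CPM in control and 66.2, 59.5 and 63.9 CPM in the KO libraries (log2 fold change 1.05, standard error 0.099), and CKS2 at 20.8, 22.4 and 21.6 CPM and 38.6, 44.3 and 46.8 CPM (log2 fold change 1.00, standard error 0.11). CKS2 went under 2-fold without control replicate 1, control replicate 3, KO replicate 2 or KO replicate 3, PLK1 without control replicate 1 and CKS1B without control replicate 2, while all stayed past an adjusted p of 0.05. The table also holds 6 genes named as CKS1B pseudogenes, with a summed mean of 27.8 counts.

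MKI67, the gene of the Ki-67 protein that coats mitotic chromosomes and is used as a marker of dividing cells, was at 128, 106 and 100.4 CPM in control and 303, 275 and 258 CPM in the KO libraries. It was 2.49-fold higher (log2 fold change 1.32, standard error 0.10, adjusted p = 6.84e-08, edgeR), and the lowest KO library was above the highest control library. MDM2, the ubiquitin ligase that removes p53 and is itself a p53 target, was at 391, 319.6 and 330.3 CPM and 567, 613 and 627 CPM, a log2 fold change of 0.80 (adjusted p = 2.56e-06, edgeR, standard error 0.086).

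**Figure D3:**
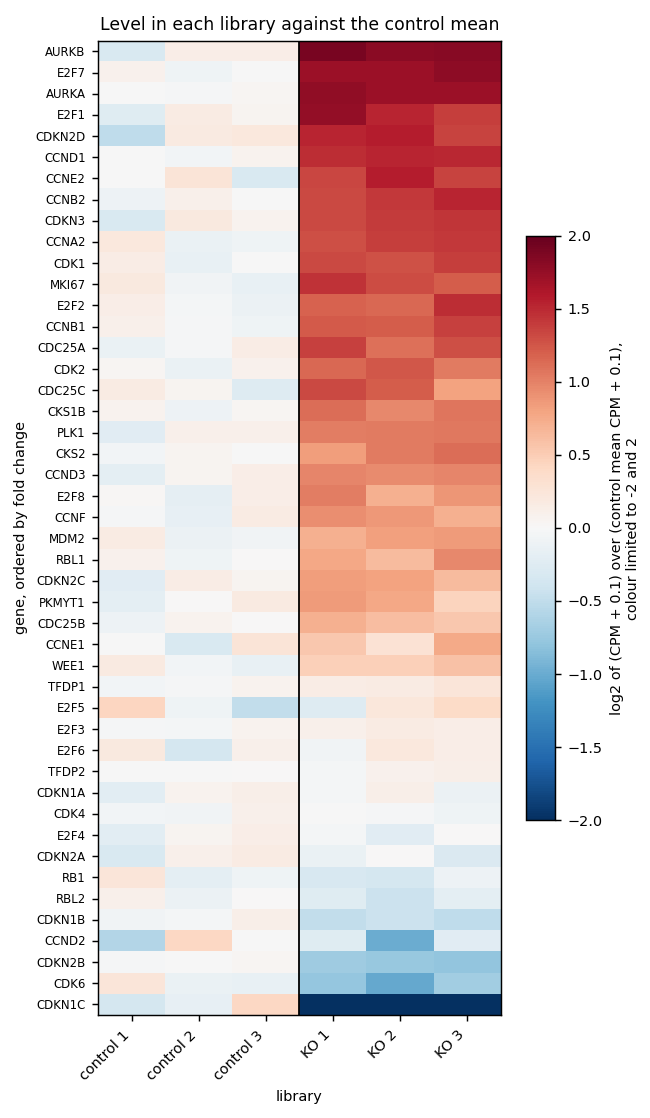
Level of each of the 46 genes (rows, ordered by fold change) in each library (columns), as log2 of CPM + 0.1 over the control mean + 0.1, with the colour limited to -2 and 2. The 3 KO columns are red for the upper rows from AURKB down to WEE1, pale for E2F3, TFDP2, CDKN1A and CDK4, and blue for CDKN1B, CDKN2B, CDK6 and CDKN1C.

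Genes that these factors act on were compared through lists drawn up by hand. Of 26 E2F target genes of S phase, 25 were higher and 0 lower, with a median log2 fold change of 0.88. They included ORC1 of the origin recognition complex (log2 fold change 1.56, standard error 0.16), GINS1 of the replicative helicase (1.55, standard error 0.10), the licensing factor CDC6 (1.25, standard error 0.090) and MCM10 (1.25, standard error 0.16). Of 28 genes of G2 and M phase, 27 were higher and 0 lower, with a median of 1.26. Among those whose groups did not overlap and that averaged 100 counts or more, the largest changes were in BIRC5 (survivin) at 1.97 (standard error 0.093), the kinesin KIF2C at 1.89 (standard error 0.098), CDCA8 (borealin) at 1.65 (standard error 0.11) and the spindle checkpoint kinase TTK at 1.64 (standard error 0.10). The tested genes within 5 Mb of BIRC5 had a median log2 fold change of 0.68, and those around KIF2C, CDCA8 and TTK of 0.21, 0.09 and 0.04. Of the 7 tested genes of MuvB, B-MYB and FOXM1, 5 were higher and 0 lower (median 0.60), with FOXM1 at 1.18 (standard error 0.093), MYBL1 at 0.75 (standard error 0.093), LIN54 at 0.72 (standard error 0.11) and LIN52 at 0.60 (standard error 0.11). MYBL2 (B-MYB) did not pass, at -0.28 (standard error 0.17, adjusted p = 0.198, edgeR), but it passed as lower without control replicate 1, at -0.42 (adjusted p = 0.0244, edgeR). A promoter window was found for 23 genes of the S phase list and 24 of the G2 and M list. Of these, 60.9% and 8.33% held one of the E2F sites defined above, and 4.35% and 75% held CHR.

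Lists of other arms of the system were counted in the same way, and the genes named as changing most are those among genes whose groups did not overlap and that averaged 100 counts or more. Of 27 p53 target genes, 20 were higher and 1, SESN2 (-0.47), was lower, with a median of 0.45 and the largest changes in TP53I3 (1.36), FDXR (1.36), the death receptor FAS (1.25) and the secreted factor GDF15 (0.98). The genes within 5 Mb of FDXR, on chromosome 17 as is BIRC5, had a median of 0.68. Of 24 genes of the ubiquitin ligases that clear cell cycle proteins, 8 were higher and 2 lower, with a median of 0.10. The higher ones held UBE2C (1.62), UBE2S (1.07) and CDC20 (1.54), which act with the anaphase-promoting complex, and its inhibitor FBXO5 (1.02), while SKP2, which targets CDKN1B, was at -0.01 (standard error 0.097). UBE2C and CDC20 also stand in the G2 and M list. Of 34 tested other cyclins and CDKs, many of which serve transcription rather than the cell cycle, 9 were higher and 7 lower, with a median of 0.01. The 7 lower genes became 4 without control replicate 2, KO replicate 2 or KO replicate 3, and 9 without control replicate 1. With these limits the largest changes were in CDK5R1 (1.22), CCNYL1 (-1.17), CDK16 (0.60) and CDK10 (-0.59), and the genes within 5 Mb of them had medians of 0.06, -0.54, 0.37 and -0.44. The shares of higher genes were 96.2% for the S phase list, 96.4% for the G2 and M list, 74.1% for the p53 targets, 71.4% for the genes of MuvB, B-MYB and FOXM1, 33.3% for the ubiquitin ligases and 26.5% for the other cyclins and CDKs, beside 20.7% of all genes, and these shares were not tested against each other.

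**Figure D4:**
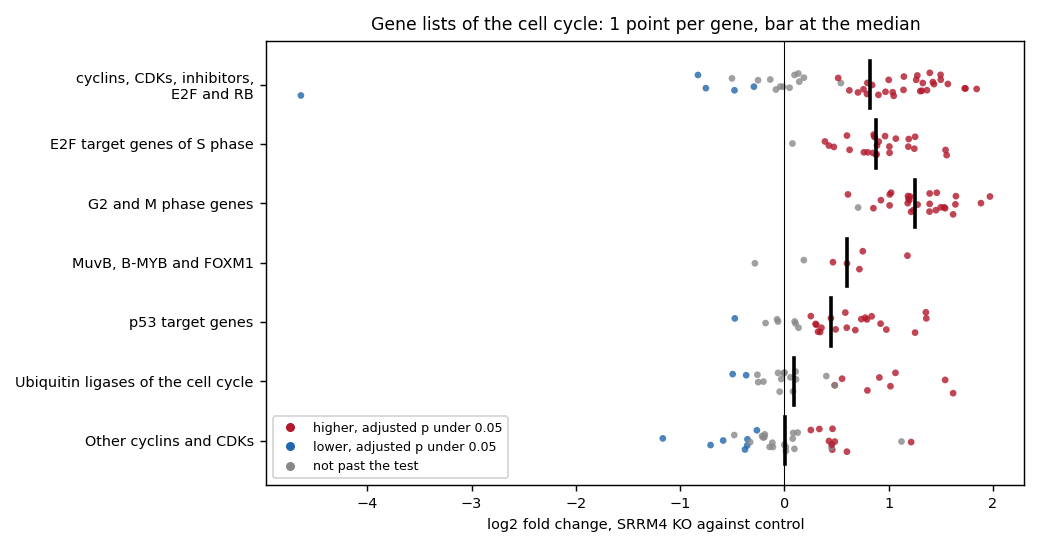
Log2 fold change (x axis) of each tested gene of the 46 and of 6 further lists (rows, 1 point per gene), coloured by call, with a bar at the median of the row. Medians run from 1.26 for G2 and M phase genes to 0.01 for the other cyclins and CDKs.

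Whole chromosomes differed between the groups, so each gene was set beside its neighbours. The median log2 fold change of the tested genes within 5 Mb, which were 22 to 207 in number, ran from -0.44 around CKS2 to 0.29 around TFDP2. All 29 higher genes lay above the median of their neighbours, by at least 0.43 (WEE1), and 9 of them, PLK1 and CKS2 among them, lay among neighbours with a median below 0. All 5 lower genes lay below their neighbours, CDK6 by 0.52 and CDKN2B by 0.56 on the log2 scale, but RBL2 by only 0.13. RB1 was at its neighbours' level, within 0.0074. The chromosome median was also taken from each fold change, for which no p was computed. RBL2 was then at -0.01, and CCNF went from 0.84 to 1.12, beyond 2-fold. The sign turned in 5 genes that did not pass, RB1 (0.01), E2F4 (from -0.08 to 0.20), CDKN2A (from -0.13 to 0.11), CDK4 (0.01) and TFDP2 (-0.06). Copy number was not measured, and the part of regional shifts in these values was not tested further.

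**Figure D5:**
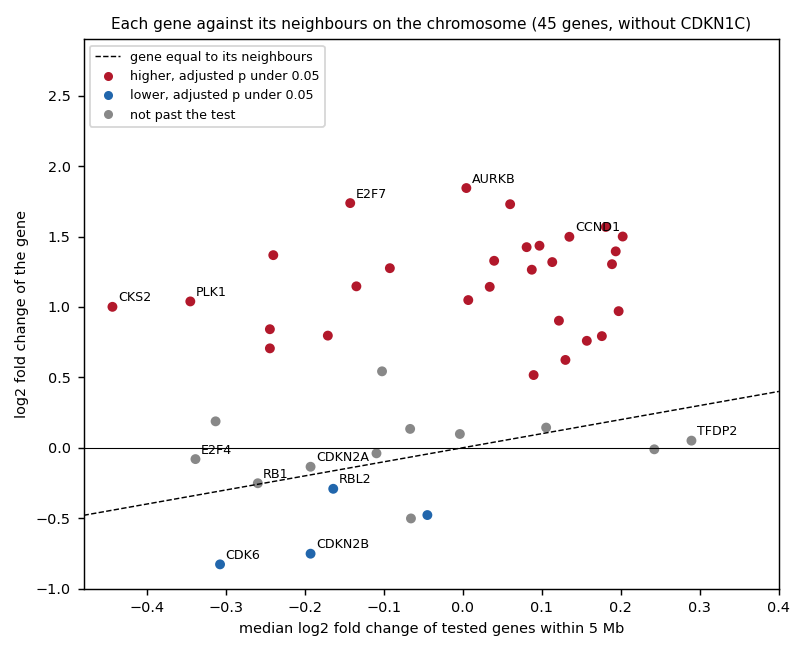
Log2 fold change of each of 45 genes (y axis, without CDKN1C at -4.64) against the median log2 fold change of the tested genes within 5 Mb of it (x axis), coloured by call; the dashed line marks equality. The 29 higher genes lie above the line, at x values from -0.44 (CKS2) to 0.20 (CDKN2D), and RB1 lies on it.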

How the data were processed

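RNA of 3 control and 3 SRRM4 KO libraries of UE7T-9 cells gave non-stranded mRNA-seq data. The authors deposited raw counts per gene with the length of each gene in bases. The submitters' processing notes name HISAT2 2.0.5, featureCounts 1.5.0-p3 and DESeq2, without role. Gene coordinates matched GENCODE release 29 (GRCh38). Groups were taken from the genotype labels and replicate numbers from the titles.

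Counts were tested with edgeR 4.0.16 in R 4.3.3, by its quasi-likelihood test after filterByExpr and TMM, at a prior count of 0.125, and p-values were adjusted by Benjamini-Hochberg over all 15341 genes kept. CPM used TMM-scaled library sizes, and TPM the deposited gene lengths. Standard errors came from the F statistic. Alternatives were DESeq2 1.42.0, its size factors, upper-quartile normalization, other filters, protein-coding genes only, a replicate block, glmTreat, centring by chromosome and each library left out. The procedure was tested on simulated data.

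The 46 genes and all lists were chosen with earlier results of these data known. Library values are given for each gene past an adjusted p of 0.05 and 2-fold and for at least 1 gene of each role. From each list, at most 4 genes were named, those that changed most among genes whose groups did not overlap and whose mean was 100 counts or more. MYBL2, MCM6 and the other MCM subunits, PRC1, SESN2, SKP2 and TERT were added after their values were seen.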

Additional observations from a re-analysis of the deposited data

How the results depend on the processing

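None of the 46 genes changed direction and passed the test in the other direction under any alternative run. The numbers of the 46 genes with an adjusted p under 0.05 ran from 29 to 30 higher and 4 to 6 lower over all alternatives in which the test was run again, which leaves out the chromosome centring. With DESeq2, DESeq2 size factors, upper-quartile normalization or protein-coding genes only, the call of each of the 46 genes at an adjusted p under 0.05 was kept. Beyond 2-fold, glmTreat called 13 higher, and 0 were lower with at least 10 counts in every library, since that filter removes CDKN1C. Of the lists, the ubiquitin ligases had 4 lower with upper-quartile normalization. With each library left out, the lower genes numbered 0 to 1 for MuvB, B-MYB and FOXM1 and 1 to 2 for p53 targets, each highest without control replicate 1, where MYBL2 was at -0.42 (adjusted p = 0.0244, edgeR), and 4 to 9 for the other cyclins and CDKs, with 4 without control replicate 2, KO replicate 2 or KO replicate 3. On counts without length, the share of CCND2 among D-type cyclins differed by -0.44 and that of CDK6 in CDK4 plus CDK6 by -13.3 percentage points. The causes were not tested, except where the filter shows it. RB1 passed with no filter (adjusted p = 0.0259, edgeR).

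The same replicate numbers of both groups did not deviate together (correlations of -0.09, 0.11 and -0.10). From 3 libraries per group this cannot settle whether libraries were prepared in pairs, and no source used here says whether they were. With the replicate block, 6125 genes were called against 6384 without it, and 30 of the 46 were higher and 5 lower, CCNE1 passing with an adjusted p of 0.0436. CKS2 went under 2-fold with the replicate block, with upper-quartile normalization, with at least 10 counts in every library and with protein-coding genes only. Depth limits the values of CCND2, CDKN1C, E2F2, E2F5 and E2F8, which had a mean of at most 105 counts per library.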

Other observations

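A few genes of the lists with many higher genes did not pass the test. MCM6, 1 of the 6 subunits of the replicative MCM helicase, was at 116, 115 and 111 CPM in control replicates 1 to 3 and at 114, 118 and 129 CPM in KO replicates 1 to 3 (log2 fold change 0.08, standard error 0.084, adjusted p = 0.493, edgeR). The other subunits, MCM2, MCM3, MCM4, MCM5 and MCM7, rose by 0.39 to 0.86 on the log2 scale. The tested genes within 5 Mb of MCM6 had a median log2 fold change of -0.39, and the part of this regional shift in its value was not tested. MYBL2, the B-MYB factor that works with MuvB and FOXM1 on mitotic genes, was at 17.1, 22.8 and 23.9 CPM in control and at 19.8, 19.3 and 13.4 CPM in the KO libraries, and passed as lower only without control replicate 1 (log2 fold change -0.42, adjusted p = 0.0244, edgeR), whereas FOXM1 rose from 52.5 ± 3.75 to 119 ± 7.76 CPM (SD, n = 3 each). PRC1, which bundles spindle microtubules, had only 11 to 15 counts in the control and 18 to 30 counts in the KO libraries, far below the other genes of G2 and M phase, and did not pass. Whether its exons overlap those of other genes, which can affect its count, was not checked.

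TERT, the catalytic subunit of telomerase on chromosome 5 (1253147 to 1295069), had 3144, 3351 and 3938 counts in the control libraries and 9806, 10994 and 8532 counts in the KO libraries. It was 2.68-fold higher in SRRM4 KO cells (log2 fold change 1.42, standard error 0.092, adjusted p = 1.15e-08, edgeR). The tested genes within 5 Mb of it had a median log2 fold change of 0.00, and whether its reads come from the cell's own gene or from an introduced copy was not tested.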
